A study of Mus musculus with 9 samples.

Results

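The genes described here are ligands, receptors and close partners of the transforming growth factor beta (TGF-beta) and activin pathway: Tgfb1, Tgfb2, Tgfb3, Inhba, Tgfbr1, Tgfbr2, Tgfbr3, Ltbp1, Ltbp3 and Tgfbi. They were taken by symbol and not by a cut on measured values, though with earlier results of these data known. They make up 10 of the 24102 rows of the deposited expression table. RNA was sequenced from cells of mouse limbs at E12.5, which were dissociated and sorted for green fluorescence. Mutant cells were Shox2(Cre/-);Rosa(mTmG) and control cells were Shox2(Cre/+);Rosa(mTmG). Both genotypes therefore carried Cre at 1 Shox2 allele and the mTmG reporter at Rosa, and the control kept a normal copy of Shox2, a homeodomain factor of the proximal limb. Cre from the Shox2 locus turns the reporter from red to green, so the cells are those in which this locus is or was active. The sources used here do not say which bases the mutant allele lacks or how many embryos made up a sample. The table holds 3 mutant and 3 control columns, 1 of each genotype from each of litters 1, 2 and 3, and nothing says whether p-values over them measure more than the spread between these columns. The series has 9 samples, of which 4 are mutant, 3 control and 2 whole limbs; the whole limbs were not analysed here.

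TGF-beta ligands are secreted in a latent form, bound to latent TGF-beta binding proteins in the matrix, and must be released before they act. The free ligand binds the type II receptor, which activates the type I receptor, and receptor-regulated SMAD proteins with SMAD4 then enter the nucleus. Activins are related ligands that use their own type I and type II receptors and feed the same SMADs. In the limb bud these ligands are known for roles in cartilage condensation, joint and tendon formation and, for Tgfb2 and Tgfb3, in the formation of tendon progenitors.

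All 10 genes were detected, and no difference between genotypes passed the test in any of them. Values are FPKM (fragments of a transcript scaled by its length and by the mapped fragments), a level per length that can be set side by side between genes; depth is unknown. The test was limma's moderated linear model on log2(FPKM + 1) over the 12314 rows that reached 1 FPKM in 3 or more of the 6 columns, with Benjamini-Hochberg adjustment and a threshold of 0.05. All 10 genes passed the filter on low values, and Tgfb1 did so with 4 columns, both columns of litters 2 and 3. Adjusted p was 1.00 for each of the 10. Over all rows the share called was 0% in this fit and 0% in a fit with litter as a block, in which each mutant is compared with the control of its own litter, so the absence of calls is not particular to these genes. The lowest adjusted p of any row was 0.247, or 0.0643 with the block.

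Shox2 was at 16.7, 18.3 and 96.9 FPKM in the mutants of litters 1, 2 and 3, against 217, 222 and 210 FPKM in their controls. The groups did not overlap, but the litter 3 mutant column lay well above the other 2 mutant columns. The log2 change was -2.75 (SE 0.64, limma adjusted p = 0.803; 0.0998 with litter as a block), and without the litter 3 mutant it was -3.56 (adjusted p = 0.0115). The mesenchyme markers, which fit the labelled limb cells, summed to 1002 to 1423 FPKM in mutants and to 1192 to 1433 FPKM in controls. Much of each sum was Col1a2, at 521 to 706 FPKM in mutants and 717 to 735 FPKM in controls. The 8 endothelial markers summed to 5.80 to 6.03 FPKM in mutants and to 6.97 to 18.9 FPKM in controls. The 10 leukocyte markers summed to 11.9 to 23.2 FPKM in mutants and to 13.4 to 16.4 FPKM in controls, and 4 of them, Ptprc, Tyrobp, Fcer1g and Aif1, were listed at 0 in the litter 2 control. In such bulk samples, fewer cells of a type and less RNA per cell cannot be told apart.

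**Figure D1:**
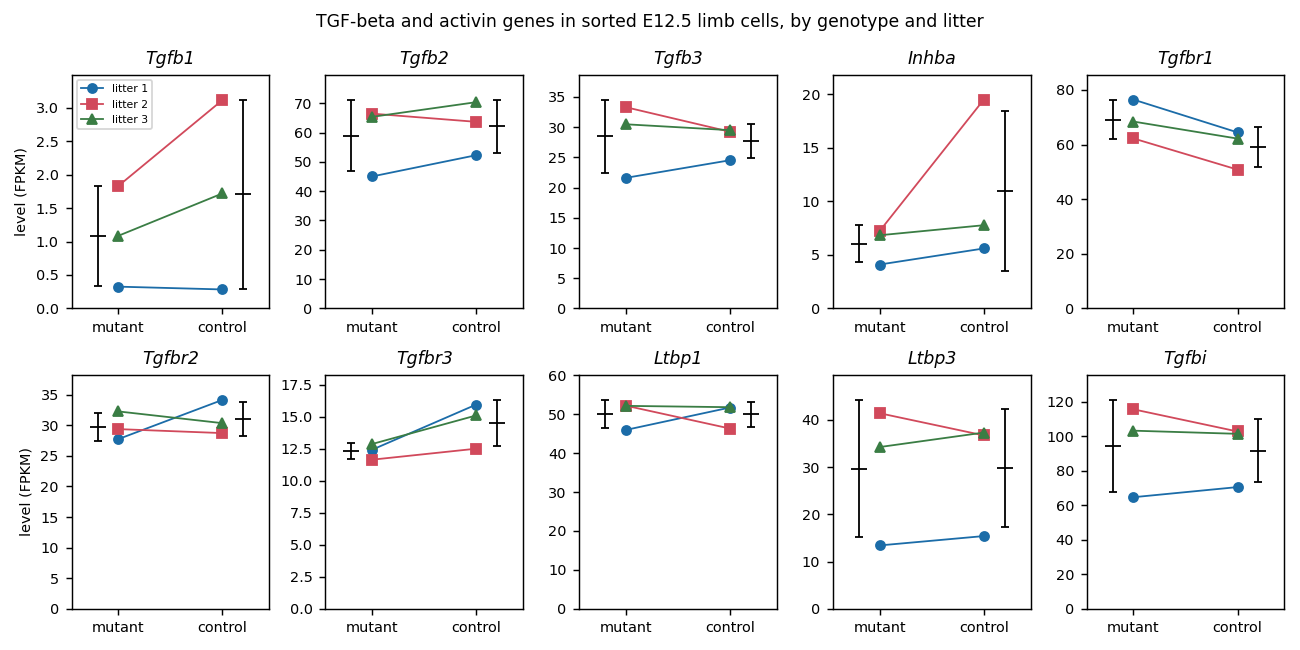
Level of each of the 10 genes in FPKM (vertical axes, linear, from 0) in mutant and control columns, with a line joining the columns of a litter; bars beside the points are mean and SD over 3 columns. Every gene has overlapping mutant and control values, and the litter 1 points lie lowest for Tgfb1, Tgfb2, Tgfb3, Inhba, Ltbp3 and Tgfbi.

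By mean level over the 6 columns, Tgfbi was highest at 93.0 FPKM, above 94.8% of the tested rows. Tgfbr1 followed at 64.1 FPKM, Tgfb2 at 60.5, Ltbp1 at 50.04, Tgfbr2 at 30.4, Ltbp3 at 29.7 and Tgfb3 at 28.1 FPKM. The low end held Tgfbr3 at 13.4 FPKM, Inhba at 8.51 FPKM and Tgfb1 at 1.39 FPKM, and Tgfb1 stood above no more than 4.14% of the tested rows. Most neighbours in this order changed places in some column; the steps that held in all 6 columns were Ltbp1 above Tgfbr2, Tgfb3 above Tgfbr3 and Inhba above Tgfb1.

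Among the ligands, Tgfb2 supplied most of the TGF-beta transcript in both genotypes and Tgfb1 almost none. Tgfb2, the isoform whose loss in mice causes skeletal and heart defects, was at 45.0, 66.4 and 65.3 FPKM in the mutants of litters 1, 2 and 3, against 52.3, 63.6 and 70.3 FPKM in the controls. The values overlapped, and the mutant was the lower column in litters 1 and 3 and the higher in litter 2. Tgfb2 averaged 58.9 ± 12.1 FPKM in mutants and 62.1 ± 9.14 FPKM in controls (SD, n = 3 each), a log2 change of -0.09 (SE 0.21).

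Tgfb3, the isoform required for palate fusion in mice, was at 21.6, 33.3 and 30.5 FPKM in mutants, against 24.5, 29.2 and 29.5 FPKM in controls. The mutant was again the lower column in litter 1, and the higher in litters 2 and 3. The means were 28.5 ± 6.10 FPKM in mutants and 27.8 ± 2.80 FPKM in controls (SD, n = 3 each), a log2 change of 0.02 (SE 0.19).

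Tgfb1, the isoform best known from immune regulation and blood vessels, was at 0.326, 1.83 and 1.09 FPKM in mutants, against 0.284, 3.11 and 1.72 FPKM in controls. Mutant values were lower in litters 2 and 3, while in litter 1 both columns were near the bottom of the range of this gene. The log2 change was -0.29 (SE 0.47), a scale that understates the change of so low a gene; with a pseudocount of 0.1 in place of 1 it was -0.40. Without the litter 2 control it was 0.09.

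As shares of the summed FPKM of these 3 ligands, Tgfb2 made up 66.7 ± 1.11% in mutants and 67.8 ± 1.48% in controls (SD, n = 3 each). Tgfb3 made up 32.2 ± 0.676% in mutants and 30.4 ± 1.39% in controls, and Tgfb1 made up 1.14 ± 0.658% in mutants and 1.77 ± 1.44% in controls. The proportions of Tgfb2 and Tgfb3 thus varied less between columns than the levels themselves.

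Inhba encodes the beta A subunit, which pairs with itself to form activin A and with the inhibin alpha subunit to form inhibin A. It had the largest difference between genotypes of the 10 genes, and that difference rested mostly on 1 control column. Inhba was at 4.11, 7.24 and 6.84 FPKM in the mutants of litters 1, 2 and 3, against 5.61, 19.5 and 7.78 FPKM in the controls. The mutant was lower in 3 of 3 litters, at 73.2%, 37.1% and 87.9% of its control, but the genotypes overlapped because the litter 1 control lay below the mutants of litters 2 and 3. The mean was 6.06 ± 1.71 FPKM in mutants and 11.0 ± 7.48 FPKM in controls (SD, n = 3 each).

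The log2 change of Inhba was -0.62 (SE 0.44, limma unadjusted p = 0.202). With litter as a block the SE was 0.22 and the unadjusted p was 0.0275, with a 95% interval of -1.14 to -0.09, but the adjusted p was 0.385. Inhba was the 1 gene of the 10 with an unadjusted p under 0.05 in the blocked fit, in which 6.29% of all rows passed that level lower in mutants and 5.34% higher. Without the litter 2 control, the log2 change of Inhba was -0.14. With that whole litter left out it was -0.27.

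The promoter window of Inhba is shown because this gene differed most, and TAAT, the core recognised by many homeodomain proteins, is in capitals on either strand (TAAT or ATTA). It is chr13:16011601-16011900 of GRCm38.p6, plus strand, from RefSeq, and runs from 250 bases before the gene's start to 50 after it.
Inhba: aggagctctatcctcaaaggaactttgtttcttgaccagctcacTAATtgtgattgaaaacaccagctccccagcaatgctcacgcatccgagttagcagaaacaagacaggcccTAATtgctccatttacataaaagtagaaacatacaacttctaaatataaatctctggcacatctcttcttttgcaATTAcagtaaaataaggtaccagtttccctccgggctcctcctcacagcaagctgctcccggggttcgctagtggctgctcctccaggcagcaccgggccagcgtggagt
The window holds 3 cores. TAAT was found on either strand in 58.0% of all 32851 mouse windows of that length, so its presence is common. Of the 10 genes, 8 matched a window, and Tgfb3 and Tgfbr3 did not. These 8 genes have 10 windows, of which 6, from 5 genes, hold the core. The palindrome TAATNNNATTA, read on both strands and itself containing the core in each arm, was in 0 of the 10 windows and in 0.487% of all windows.

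Of the 3 receptors, Tgfbr1 was higher and Tgfbr3 lower in the mutant of every litter, though neither passed the test. Tgfbr1, the type I receptor that phosphorylates the SMADs, was at 76.5, 62.2 and 68.4 FPKM in the mutants of litters 1, 2 and 3, against 64.4, 50.8 and 62.2 FPKM in the controls. Each mutant was above the control of its litter, at 119%, 122% and 110%, yet the genotypes overlapped across litters. The mean was 69.0 ± 7.13 FPKM in mutants and 59.1 ± 7.30 FPKM in controls (SD, n = 3 each), a log2 change of 0.22 (SE 0.16, limma unadjusted p = 0.203, or 0.0761 with litter as a block). That log2 change was 0.12 when the litter 2 control was left out, and with columns weighted by how well each fitted it was 0.10.

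Tgfbr3, or betaglycan, a co-receptor that presents TGF-beta2 to the type II receptor and also binds inhibin, was at 12.4, 11.6 and 12.9 FPKM in mutants, against 16.0, 12.51 and 15.1 FPKM in controls. Each mutant was below the control of its own litter, and the mutant of litter 3 was above the control of litter 2. The mean was 12.3 ± 0.620 FPKM in mutants and 14.5 ± 1.80 FPKM in controls (SD, n = 3 each), and the log2 change was -0.22 (SE 0.14, limma unadjusted p = 0.180, or 0.0926 with litter as a block).

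Tgfbr2, the type II receptor that binds the ligand first, was at 27.7, 29.4 and 32.3 FPKM in mutants, against 34.2, 28.7 and 30.3 FPKM in controls. The mutant was lower in litter 1 and slightly higher in litters 2 and 3. A log2 change of -0.06 (SE 0.14) resulted, with a 95% interval of -0.38 to 0.27.

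Tgfbr1 was thus the 1 gene of the 10 that was higher in mutants in 3 of 3 litters, and Tgfbr3 and Inhba were the 2 that were lower in 3 of 3. Over all tested rows, 15.7% were higher and 22.3% lower in mutants in 3 of 3 litters, so such counts are near the background. None of the 10 genes had genotypes that did not overlap, a pattern met by 4.22% of all rows with mutants higher and 5.03% with mutants lower. At an unadjusted p under 0.05 in the unblocked limma fit, 0 of the 10 passed, against 2.21% of all rows higher and 1.36% lower in mutants. The median log2 change of the 10 was -0.05, and that of all tested rows was -0.04. With 3 columns a side, the smallest p of an exact two-sided permutation test is 0.1, and that test gave 0.2 for Tgfbr1, 0.2 for Tgfbr3 and 0.4 for Inhba.

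**Figure D2:**
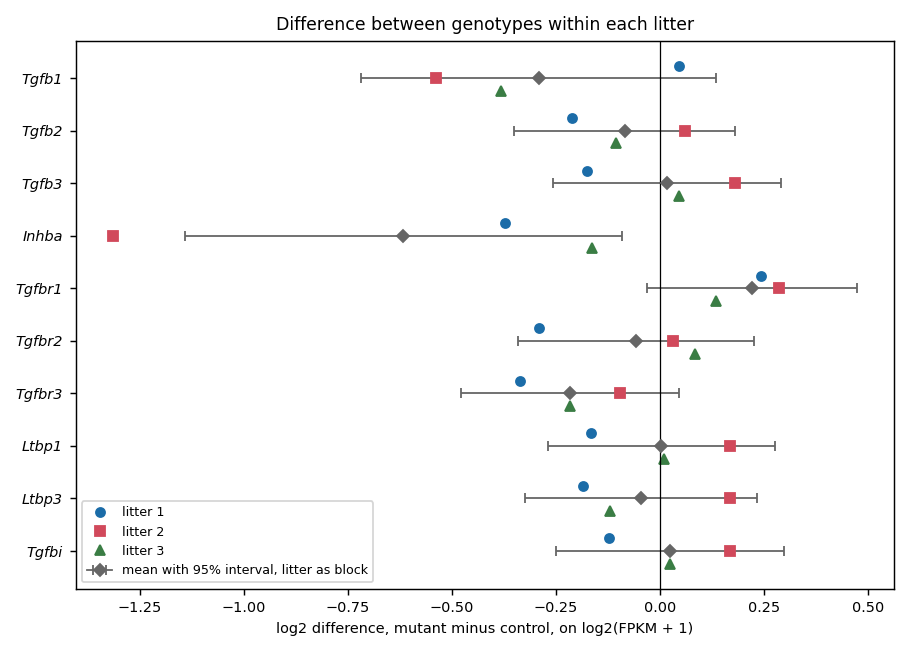
Difference in log2(FPKM + 1), mutant minus control, within each litter (horizontal axis; coloured points) for the 10 genes, with the mean of the 3 litters and its 95% interval from the limma fit with litter as a block (grey). The Tgfbr1 points all lie above 0 and those of Tgfbr3 and Inhba all below it, and the Inhba point of litter 2 lies farthest from 0 at -1.32.

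The latent TGF-beta binding proteins and the TGF-beta-induced matrix protein were close in level between genotypes. Ltbp1, which tethers the latent complex to the matrix, is the 1 gene of the 10 among the 1352 symbols of a deposited gene list named for genes that Shox2 directly represses, and no source used here says how that list was built. It was at 46.0, 52.2 and 52.2 FPKM in the mutants of litters 1, 2 and 3, against 51.7, 46.3 and 51.8 FPKM in the controls. The mutant was the lower column in litter 1 and the higher in litter 2, with little between the columns of litter 3. The mean was 50.1 ± 3.58 FPKM in mutants and 49.96 ± 3.15 FPKM in controls (SD, n = 3 each), the log2 change was 0.00 (SE 0.13) and its 95% interval ran from -0.31 to 0.32. The highest Ltbp1 column was 1.14 times the lowest, the smallest such range of the 10 genes.

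Ltbp1 has 2 promoter windows in the RefSeq table, shown because of its place on that list, with TAAT cores in capitals as above. They are chr17:75005279-75005578 and chr17:75178531-75178830 of GRCm38.p6, both plus strand.
Ltbp1, upstream start: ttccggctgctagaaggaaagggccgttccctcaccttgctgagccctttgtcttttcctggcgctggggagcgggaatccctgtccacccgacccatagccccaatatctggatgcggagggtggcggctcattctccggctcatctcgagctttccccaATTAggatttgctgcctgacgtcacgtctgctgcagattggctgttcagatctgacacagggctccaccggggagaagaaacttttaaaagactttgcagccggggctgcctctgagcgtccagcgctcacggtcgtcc
Ltbp1, downstream start: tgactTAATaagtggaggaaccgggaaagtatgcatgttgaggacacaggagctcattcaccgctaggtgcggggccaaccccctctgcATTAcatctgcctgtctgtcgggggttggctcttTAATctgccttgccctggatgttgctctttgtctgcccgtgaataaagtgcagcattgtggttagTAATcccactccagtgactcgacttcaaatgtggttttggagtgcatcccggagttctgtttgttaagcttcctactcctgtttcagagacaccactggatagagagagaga
The upstream window holds 1 core and the downstream window 4. The values per gene do not separate transcripts from these starts.

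Ltbp3, another latent binding protein, was at 13.4, 41.4 and 34.2 FPKM in mutants, against 15.4, 36.7 and 37.3 FPKM in controls. Both columns of litter 1 were far below the rest, and the genotypes were close within each litter. The mean was 29.7 ± 14.5 FPKM in mutants and 29.8 ± 12.48 FPKM in controls (SD, n = 3 each), a log2 change of -0.05 (SE 0.50; 0.12 with litter as a block) whose sign changed with the scaling, to 0.0023 under quantile normalisation.

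Tgfbi, a secreted matrix protein first found as a gene induced by TGF-beta, was at 64.6, 116 and 103 FPKM in mutants, against 70.5, 103 and 101 FPKM in controls. The mutant was lower in litter 1 and higher in litters 2 and 3. This gave a log2 change of 0.02 (SE 0.27), with a 95% interval of -0.62 to 0.67, or -0.25 to 0.30 with litter as a block.

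Litter 1 stood apart for a larger share of the 10 genes than genotype did. Both of its columns lay below all 4 other columns for 6 of the 10, Tgfb1, Tgfb2, Tgfb3, Inhba, Ltbp3 and Tgfbi, and above them for 0. Over all tested rows both litter 1 columns were below the others in 30.0% and above them in 16.3%. The mean of litter 1 was 0.157 of that of litters 2 and 3 for Tgfb1, 0.385 for Ltbp3, 0.469 for Inhba, 0.639 for Tgfbi, 0.732 for Tgfb2 and 0.753 for Tgfb3. The receptors and Ltbp1 did not follow this pattern, at 1.16 for Tgfbr1, 1.03 for Tgfbr2, 1.09 for Tgfbr3 and 0.965 for Ltbp1. The headers state the normalisation above each litter separately, and its part in these differences between litters was not tested. Ltbp1 over Ltbp3, a pair picked after the values were seen, was 3.43 in the mutant and 3.36 in the control of litter 1. In litters 2 and 3 that ratio was 1.26 and 1.52 in mutants and 1.26 and 1.39 in controls.

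Ratios between genes of one column do not depend on how that column was scaled, and they were compared for all 45 pairs of the 10 genes after the values had been seen, as a description with no test. The genotypes did not overlap for 4 pairs, or 8.89%, against 9.36% of all pairs of tested rows without a value of 0, so that count is near the background. Tgfbr1 over Tgfbr3 was 6.15, 5.34 and 5.31 in mutants, against 4.04, 4.06 and 4.12 in controls. The 3 control values lay close together, and each mutant value lay above them. Tgfbr1 over Tgfbr2 was 2.76, 2.12 and 2.12 in mutants, against 1.89, 1.77 and 2.05 in controls. The gap between the genotypes was narrow here, between litters 2 and 3 of the mutants and litter 3 of the controls. Inhba over Tgfbi was 0.0635, 0.0627 and 0.0663 in mutants, against 0.0795, 0.190 and 0.0768 in controls. Tgfb3 over Inhba was 5.26, 4.60 and 4.45 in mutants, against 4.37, 1.50 and 3.79 in controls. Both of the pairs with Inhba had their most distant value in the litter 2 control.

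**Figure D3:**
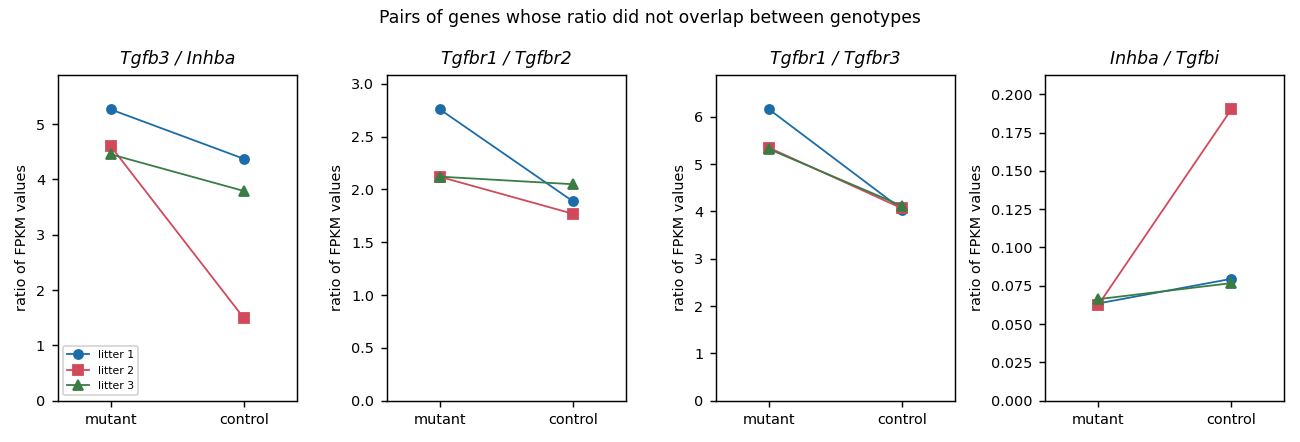
Ratio of FPKM values (vertical axes, linear, from 0) of the 4 pairs of genes whose values did not overlap between genotypes, in mutant and control columns, with a line joining the columns of a litter. Tgfbr1 over Tgfbr3 is between 5.31 and 6.15 in mutants and between 4.04 and 4.12 in controls.

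Markers of other cell types moved in the litter 2 control, the column with the highest Inhba and Tgfb1. Endothelial markers, all 8 above 0 in every column, summed to 6.03, 5.80 and 5.82 FPKM in the mutants of litters 1, 2 and 3, against 6.97, 18.9 and 8.41 FPKM in the controls. Surface ectoderm markers summed to 16.9, 24.6 and 20.2 FPKM in mutants, against 23.1, 45.4 and 27.3 FPKM in controls. Muscle markers summed to 50.5, 49.1 and 47.2 FPKM in mutants, against 28.2, 76.3 and 34.9 FPKM in controls. In each of these lists the litter 2 control had the highest sum of the 6 columns, but not every marker peaked there. Actc1 alone was at 40.4 FPKM of the muscle sum in that column. Myog, Myf5, Pax7, Myh8 and Tnnt2 of the muscle list were each highest in another column. So were Tek of the endothelial list and Fgf8 of the ectoderm list. The part of these cell types in the Inhba and Tgfb1 values was not tested.

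The mesenchyme sum was also highest there, though close to the litter 2 mutant, at 1423 FPKM in that mutant against 1433 FPKM in that control. Col1a2, at 735 FPKM of that control's sum, and Twist2 peaked there. Prrx1, Prrx2, Twist1, Meis1, Meis2, Hoxd10 and Hoxa11 were each highest in another column. Of these 9 markers, 4 were higher and 2 lower in mutants in 3 of 3 litters, against 15.7% and 22.3% of all tested rows. The red cell, nerve, megakaryocyte and cartilage lists did not peak in the litter 2 control. Red cell markers summed to 715, 382 and 229 FPKM in mutants, against 490, 595 and 328 FPKM in controls. Nerve and glia markers summed to 75.2, 39.9 and 30.1 FPKM in mutants, against 37.3, 58.6 and 21.0 FPKM in controls. Megakaryocyte markers summed to 2.41, 1.51 and 1.79 FPKM in mutants, against 0.435, 0.267 and 1.73 FPKM in controls, with Pf4, Gp9, Ppbp and Gp6 listed at 0 in the litter 2 control. Cartilage markers summed to 600 to 1011 FPKM in mutants and to 664 to 765 FPKM in controls.

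**Figure D4:**
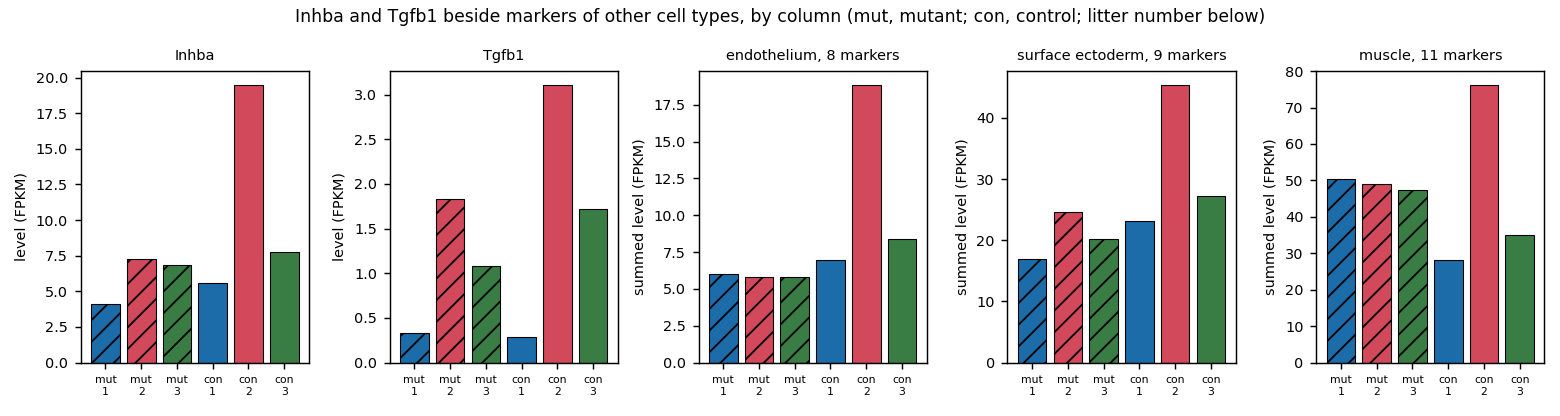
Level of Inhba and of Tgfb1 and summed level of 3 marker lists (bars from 0, FPKM) in each mutant (hatched) and control (plain) column, with the litter number below. The litter 2 control is the highest bar in all 5 panels, at 19.5 FPKM for Inhba and 18.9 FPKM for the endothelial markers.

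Of 77 other genes of the pathway, arranged in 6 lists by role, 62 passed the filter on low values and 0 passed the adjusted threshold in either fit. Their median log2 change was -0.02. At an unadjusted p under 0.05, 3 of the 62 were higher and 4 of the 62 lower in mutants, against 2.21% and 1.36% of all tested rows. With litter as a block 5 of the 62 were higher and 12 of the 62 lower, against 5.34% and 6.29% of all rows. Genotypes did not overlap for 12 of the 62, 6 with mutants higher and 6 with mutants lower, against 4.22% and 5.03% of all rows. In 3 of 3 litters, 13 of the 62 were higher and 19 of the 62 lower in mutants, against 15.7% and 22.3% of all rows. Those 2 shares of all rows are also the background for the counts given for each list below. The lists were chosen with earlier results of these data known, so all these counts are a description. Each list is described by the 3 genes of smallest unadjusted p, without the block, at a mean of 2 FPKM or more. Their small p values follow in part from that choice.

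Among the other ligands, 3 of 12 were tested, since activin beta B, nodal, myostatin and most others were below the filter. Inha, the inhibin alpha subunit that competes for Inhba, was at 4.66, 11.1 and 9.03 FPKM in mutants, against 7.89, 18.4 and 11.6 FPKM in controls. It was lower in the mutant of every litter while overlapping across litters, with a log2 change of -0.55 (SE 0.38, limma unadjusted p = 0.189; with litter as a block 0.00291, adjusted p = 0.189). Inhba over Inha was 0.764 ± 0.113 in mutants and 0.814 ± 0.214 in controls (SD, n = 3 each). The log2 changes of the ligands Gdf11 and Gdf1 were 0.07 and 0.02, and Gdf1 shares a transcript with Cers1, so its value is uncertain.

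Of 7 other receptors and co-receptors, 5 were tested, 3 were higher and 1 lower in mutants in 3 of 3 litters, and their median log2 change was 0.19. Acvr1b, the activin type I receptor ALK4, was at 8.85, 8.60 and 8.17 FPKM in mutants, against 7.82, 5.12 and 7.71 FPKM in controls. These values did not overlap, with the litter 2 control lowest, and the log2 change was 0.29 (SE 0.18, limma unadjusted p = 0.154). Acvr2b, an activin type II receptor, had a log2 change of 0.24 (SE 0.23). Eng, the endothelial co-receptor endoglin, had a log2 change of -0.35 (SE 0.41), and its highest value, 4.78 FPKM, was again in the litter 2 control.

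All 15 intracellular genes were tested, 3 were higher and 1 lower in mutants in 3 of 3 litters, and the median log2 change was 0.10. Smad4, the shared partner of the receptor-regulated SMADs, was at 47.9, 51.9 and 49.5 FPKM in mutants, against 47.3, 34.6 and 46.4 FPKM in controls. The genotypes did not overlap, but in litters 1 and 3 the columns were close; the fitted log2 change was 0.23 (SE 0.16). Tgif1, a homeodomain repressor of SMAD targets, was at 29.5, 29.9 and 37.9 FPKM in mutants, against 39.9, 40.3 and 39.9 FPKM in controls. The litter 3 mutant was closest to the controls, and the log2 change was -0.31 (SE 0.14, limma unadjusted p = 0.0746). Smurf2, a ubiquitin ligase that removes receptors, had a log2 change of 0.17 (SE 0.15).

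Of the genes that hold or release the latent ligand, 13 of 16 were tested, and 3 were higher and 5 lower in mutants in 3 of 3 litters. Their log2 changes ran from -0.75 to 0.76, with a median of -0.08, and most lay nearer 0 than the genes named next. Thbs1, thrombospondin 1, a matrix protein that can activate latent TGF-beta, was at 138.8, 143.3 and 140.4 FPKM in mutants, against 99.4, 63.5 and 89.9 FPKM in controls. The mutants lay within 5 FPKM of each other and above every control. The log2 change of Thbs1 was 0.76 (SE 0.19, limma unadjusted p = 0.00644, adjusted p = 0.859; 0.151 with litter as a block).

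Adamtsl2, a secreted protein that binds LTBP1 and fibrillin, was at 3.57, 5.92 and 3.98 FPKM in mutants, against 8.30, 7.56 and 8.34 FPKM in controls. Every mutant lay below every control. The log2 change of Adamtsl2 was -0.75 (SE 0.19, limma unadjusted p = 0.00651, adjusted p = 0.859; 0.189 with litter as a block). Itgav, the integrin subunit of receptors that release latent TGF-beta, was at 19.6, 20.5 and 23.2 FPKM in mutants, against 15.1, 15.6 and 19.2 FPKM in controls. Its genotypes were apart by a narrow gap, and the log2 change was 0.33 (SE 0.15, limma unadjusted p = 0.0676).

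All 11 antagonists were tested, 1 was higher and 4 were lower in mutants in 3 of 3 litters, and the median log2 change was -0.17. Fst, follistatin, which binds and blocks activin, was at 4.80, 4.76 and 4.77 FPKM in mutants, against 5.48, 5.45 and 5.76 FPKM in controls. The columns of each genotype were close together and the groups did not overlap, with a log2 change of -0.18 (SE 0.13, limma unadjusted p = 0.189). Htra3, a secreted protease that binds TGF-beta family ligands, had a log2 change of -0.55 (SE 0.36), and Cd109, a TGF-beta co-receptor that inhibits signalling, one of 0.24 (SE 0.20).

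Of the 16 genes listed as TGF-beta targets, 15 were tested, with a median log2 change of -0.21. In 3 of 3 litters, 3 of the 15 were higher and 7 of the 15 lower in mutants, against 15.7% and 22.3% of all tested rows. Ctgf, a matricellular protein, was at 22.2, 38.5 and 20.8 FPKM in mutants, against 14.2, 15.8 and 14.8 FPKM in controls. The controls were close together and all mutants lay above them, with a log2 change of 0.77 (SE 0.24, limma unadjusted p = 0.0170, adjusted p = 1.00). Postn, periostin, a matrix protein of periosteum and tendon, was at 54.7, 52.8 and 48.7 FPKM in mutants, against 67.3, 89.9 and 70.2 FPKM in controls. Its log2 change was -0.52 (SE 0.16, limma unadjusted p = 0.0142, adjusted p = 1.00), with every mutant below every control.

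Scx, scleraxis, the transcription factor of tendon progenitors, was at 45.8, 64.4 and 62.4 FPKM in mutants, against 84.5, 79.3 and 77.2 FPKM in controls. No mutant reached a control, and the log2 change was -0.49 (SE 0.17, limma unadjusted p = 0.0256, adjusted p = 1.00). The targets thus had members far from 0 in both directions, and none passed the adjusted threshold. Of the genes of these lists, 6 are on the deposited list. They include Itgav, Cd109, Ctgf and Acta2, each higher in the mutant in 3 of 3 litters, and Col1a2, a collagen chain that was lower in 3 of 3. Cd109 was all but level in litter 1, where the mutant was at 100.2% of its control. The genotypes overlapped for Cd109 and Acta2. Over all tested rows 15.7% were higher and 22.3% lower in 3 of 3 litters. Whether the deposited list was drawn from these same values is not known, so these directions are a description only. Col1a2 was at 521, 706 and 666 FPKM in mutants, against 717, 735 and 724 FPKM in controls, a log2 change of -0.21 (SE 0.19).

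**Figure D5:**
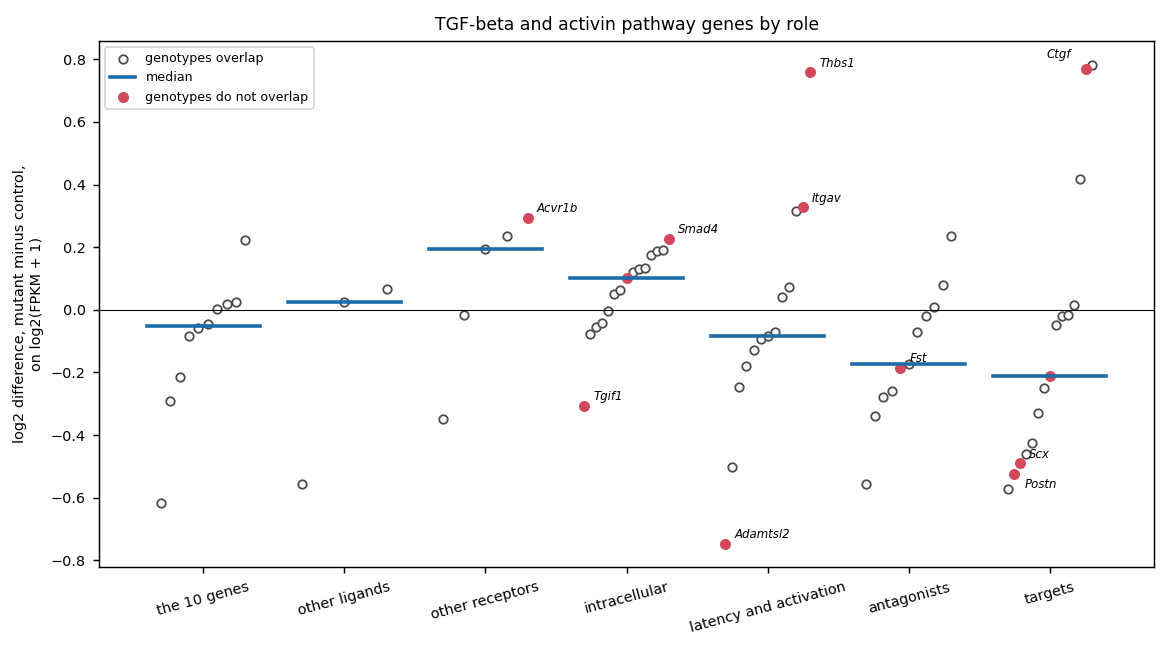
Difference in log2(FPKM + 1), mutant minus control (vertical axis), for the 10 genes and for the tested genes of 6 role lists (1 point a gene; blue line, median; filled red, genotypes that do not overlap). Thbs1 at 0.76 and Adamtsl2 at -0.75 mark the ends of the latency list, and the 10 genes run from -0.62 to 0.22.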

How the data were processed

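Per the submitters' processing notes, TopHat and Cuffdiff were used with the mm9 build; no source used here gives their versions, the annotation or the strand setting. The authors normalised the values by Cuffdiff's geometric method, per the file headers, which state it above each litter separately. The deposited values were taken as FPKM, a word the header does not use, because they are decimals from 0 of the kind Cuffdiff reports. The design counts 4 mutant samples, but the table has 3 mutant columns; whether the litter 1 mutant column is 1 of its 2 samples or both combined is not given. Depth is unknown.

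Levels on log2(FPKM + 1) were compared in R 4.3.3 by limma 3.58.1, using an intensity trend and no litter term, after a filter of 1 FPKM in at least 3 columns. A second fit had litter as a block. Litter numbers pair the columns because the labels give them as litters; within litters 1, 2 and 3, deviations of mutant and control from their group means correlated at 0.87, 0.57 and 0.77. Named genes were the 10, Shox2 and, of each role list, the 3 with the smallest unadjusted p at a mean of 2 FPKM or more. The 10 genes and all lists were chosen with earlier results of these data known. Promoter windows came from RefSeq for GRCm38.p6; since that is another build than mm9, no coordinates were set against the files. Alternatives were other pseudocounts, filters, scalings, column weights and columns or litters left out.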

Additional observations from a re-analysis of the deposited data

How the results depend on the processing

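None of the 10 genes passed the adjusted threshold under any alternative run; Tgfb1 was not tested under a mean of 5 FPKM or more. Tgfbr1, Tgfbr3 and Inhba kept their direction in all 19 alternatives, at log2 changes of 0.10 to 0.29, -0.31 to -0.15 and -0.96 to -0.14. Part of these alternatives could not turn a sign, so the count is no measure of agreement. The filters and the block leave a log2 change as it is. Dropping a litter cannot turn a gene that lies on 1 side in 3 of 3 litters. With the replicate block the log2 change of Inhba was -0.62 by design, at a limma adjusted p of 0.385. The block changed no call among the 10 genes or the 77. Signs of small, uncalled differences turned, and the cause was not tested. Ltbp3 was 0.0023 under quantile normalisation, 0.037 with column weights and 0.024 without litter 1, where Tgfbr2 was 0.059, blocked or not. Without litter 2, Tgfb3 was -0.065, Tgfbi -0.049, Ltbp1 -0.079 and Gdf11 -0.13; without litter 3, Gdf1 was -0.020. With 1 column left out, the log2 change ran from -0.75 to 0.088 for Tgfb1, -0.20 to 0.095 for Tgfb2, -0.10 to 0.20 for Tgfb3, -0.11 to 0.010 for Tgfbr2, -0.15 to 0.27 for Tgfbi, -0.049 to 0.063 for Ltbp1, -0.45 to 0.43 for Ltbp3, -0.20 to 0.32 for Gdf11 and -0.17 to 0.22 for Gdf1. Sizes also moved where the sign held, from -0.83 to -0.24 for Inha, -0.79 to -0.20 for Htra3, -0.73 to -0.017 for Eng and 0.039 to 0.40 for Acvr2b. Of the 77 pathway genes, 62 of which were tested in the main fit, 4 passed without litter 2 and with the block. These were Acta2 at 1.06 (limma adjusted p = 0.000547), Adamtsl2 at -0.97 (0.000864), Ctgf at 0.54 (0.0350) and Htra3 at -0.59 (0.0411). That fit, on 2 litters, called 303 of its 12471 tested rows, so calls were not particular to these genes. The block without litter 3 called 27 of 12430 rows and column weights called 15 of 12314, against 0 in the fit reported. Depth is unknown, so no counting error can be given for low genes such as Tgfb1.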

Other observations

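The genes in this paragraph were picked after their values were seen, from those with an unadjusted p under 0.05 in the limma fit with litter as a block. Of the 62 tested pathway genes, 5 higher and 12 lower in mutants met that rule, against 5.34% and 6.29% of all rows. Not all of them are described in this report. None passed the adjusted threshold there. Acta2, smooth muscle actin, was at 15.5, 18.9 and 19.1 FPKM in the mutants of litters 1, 2 and 3, against 6.12, 15.9 and 9.80 FPKM in the controls. Each mutant lay above the control of its litter, with a log2 change of 0.78 (SE 0.19 and limma adjusted p = 0.213, both with the block). The SE was 0.31 without the block. The 11 muscle markers summed to 50.5, 49.1 and 47.2 FPKM in mutants, against 28.2, 76.3 and 34.9 FPKM in controls, and like Acta2 were highest among the controls in litter 2; their part in the Acta2 values was not tested. Junb, an AP-1 transcription factor, was at 13.9, 18.2 and 17.2 FPKM in mutants, against 29.1, 29.3 and 17.8 FPKM in controls. Its columns were far apart in litters 1 and 2 and close in litter 3. The log2 change of Junb was -0.57 (SE 0.18 and limma adjusted p = 0.350, both with the block, and SE 0.23 without it). Lrrc32, a membrane protein that holds latent TGF-beta at the cell surface, was at 2.41, 4.27 and 4.44 FPKM in mutants, against 4.04, 6.83 and 6.03 FPKM in controls. It was lower in the mutant of 3 of 3 litters, with a log2 change of -0.50 (SE 0.12 and limma adjusted p = 0.229, both with the block, and SE 0.26 without it).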
